A study of Glycine max with 12 samples.

Results

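The genes described here are 6 soybean loci that encode fatty acid desaturases of the seed oil pathway. They were chosen by locus and not by a threshold on their values, though with earlier results of these data known. SACPD-C is Glyma14g27990, FAD2-1A is Glyma10g42470, FAD2-1B is Glyma20g24530, FAD3A is Glyma14g37350, FAD3B is Glyma02g39230 and FAD3C is Glyma18g06950. All of their splice models were taken, which gave 11 of the 78773 gene models in the data. The files carry only the Glyma identifiers, and the enzyme names are those in common use for these loci.

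Transcripts of immature seed coats were sequenced in 4 soybean lines at 3 seed weight stages, called early (50–100 mg), middle (100–200 mg) and late (400–500 mg) here. Clark standard (CS) is a self-black line of genotype i R T whose coat stays whole, and its isoline Clark defective (CD) carries in addition the trait Def, under which the coat cracks in a net pattern. Harosoy standard (HS) is a yellow line of genotype I r t, and Harosoy defective (HD) is its Def isoline. Def is a trait of unidentified gene or genes that was backcrossed from plant introductions into both cultivars, so each defective line is a single backcross product and may carry other introgressed segments. Each library holds coats dissected off the cotyledon and embryo of pooled seeds from a weight class. Each line and stage gave 1 library, or 12 libraries in 6 isoline pairs, and no library had a replicate. Values are RPKM, aligned reads scaled for the length of the gene model and for the mapped reads of the library.

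Fatty acids leave the plastid mainly as saturated chains and oleate. Stearoyl-acyl carrier protein desaturases such as SACPD-C put the first double bond into stearate in the plastid and so make oleate. FAD2 enzymes then add a second double bond in the endoplasmic reticulum and turn oleate into linoleate, and FAD3 enzymes add the third at the omega-3 position and turn linoleate into linolenate. In soybean, lesions in SACPD-C raise seed stearate, lesions in FAD2-1A and FAD2-1B raise seed oleate, and lesions in FAD3A, FAD3B and FAD3C lower seed linolenate.

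The library totals recovered from the RPKM steps were 47.5 to 113 M hits, and the 11 models had 55 to 8120 hits in a library. Each read was allowed up to 25 alignments, so hits are alignments and not molecules, and splice models or close paralogs may share them. Storage protein and oleosin transcripts, taken as markers of embryo tissue, were above 0 for all 8 loci in every library. Their summed level was 47.0 to 112 RPKM in the early libraries, 35.8 to 523 RPKM at the middle stage and 379 to 1168 RPKM at the late stage. Among these loci Glyma20g28650.1 and Glyma20g28660.1 had similar hits, for instance 8191 and 8181 in HS at the middle stage. They enter the sums and tallies separately, though they may be close to a single measurement. In such bulk samples fewer cells of a type and less RNA per cell cannot be told apart. The seed coat proline-rich protein PRP1 (Glyma09g12200.1) was at 8714 to 12890 RPKM at the early stage and at 12.2 to 43.1 RPKM at the late stage. In the middle libraries it stood at 874 RPKM in CS and 6181 in CD, and at 162 RPKM in HS and 5890 in HD. Another seed coat proline-rich protein, PRP2 (Glyma09g12260.1), ran the other way, from 4.12 to 24.1 RPKM at the early to 1313 to 4584 RPKM at the late stage. Its middle levels were 809 RPKM in CS and 174 in CD, and 3438 RPKM in HS and 8.68 in HD. Reads of the middle stage were 75 bp long and came from another platform than the 100 bp reads of the rest, so that stage and the platform cannot be told apart. Among the middle libraries the labels of CS and CD carry different RNASeq numbers, and those of HS and HD the same. What these numbers stand for was not given.

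All 6 loci were transcribed in all 12 seed coat libraries. FAD3C was the most abundant, with a median of 35.4 RPKM, and it stood above FAD3A in 12 of 12 libraries. FAD3A followed with a median of 10.7 RPKM and FAD3B with 9.42 RPKM. The order of these 2 was less sharp, since FAD3A was above FAD3B in 10 of 12 libraries and their ranges, 2.96 to 20.5 and 2.28 to 15.2 RPKM, overlapped almost fully. SACPD-C had a median of 4.90 RPKM and FAD2-1B one of 3.71 RPKM. These neighbours did not separate, with SACPD-C above FAD2-1B in 7 of 12 libraries. FAD2-1A, with a median of 1.34 RPKM, was below FAD2-1B in all 12.

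**Figure D1:**
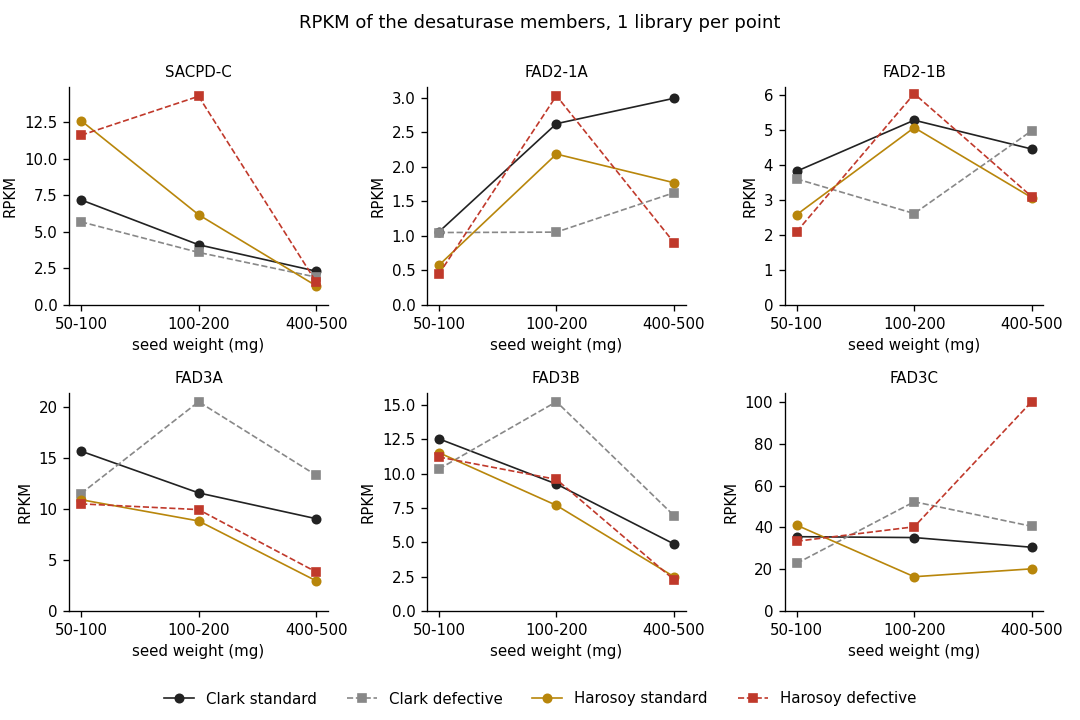
RPKM (vertical axis, from 0, each panel with its own scale) of the 6 desaturase loci against seed weight stage in mg (horizontal axis). Each point is 1 library, with circles and solid lines for the standard and squares and broken lines for the defective lines. SACPD-C and FAD3B were lowest at the late stage in all 4 lines, and FAD3C reached 100.2 RPKM in the Harosoy defective library at the late stage.

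SACPD-C, a desaturase that makes oleate, fell over seed development. At the early stage it was at 7.19 RPKM in CS, 5.69 in CD, 12.6 in HS and 11.6 in HD. The middle libraries had 4.12, 3.60, 6.18 and 14.3 RPKM in the same order of lines. The late values were 2.32, 1.91, 1.32 and 1.58 RPKM. The late libraries were thus all below every library of the other stages, whereas the early and middle libraries overlapped. The decline from the early to the late stage was 3.10-fold in CS, 2.98-fold in CD, 9.57-fold in HS and 7.35-fold in HD.

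Over the 4 lines, limma gave a log2 difference of -1.84 (SE 0.31, adjusted p = 0.00127) between the late and the early stage, with lower values in 4 of 4 lines. In this comparison 50.3% of the 46237 models tested passed an adjusted p of 0.05, and 28.2% passed with lower values, so that a decline was common among all models. The share of the calls that were higher was 43.9%, and 52.7% after quantile normalization. The step from the middle to the late stage was also called for SACPD-C (log2 difference -1.37, SE 0.31, adjusted p = 0.00657 in limma), where 49.5% of all models were called and 28.4% were lower. Of these calls 42.7% were higher, and 56.7% after quantile normalization. It was not called from the early to the middle stage (-0.47, SE 0.31, adjusted p = 0.284), a step over which 29.7% of all models were called. The 4 lines are the only repetition of each stage, and stages of a line come from different seeds of that line. The embryo marker sum was higher at the late than at the early stage in all 4 lines, and its part in the stage differences was not tested.

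SACPD-C was 2.31-fold higher in HD than in HS at the middle stage, with a counting interval of 2.12 to 2.52. HD was the only line in which SACPD-C was higher at the middle than at the early stage, by 1.23-fold. In Clark at the same stage the ratio of CD to CS was 0.873, and it lay between 0.791 and 1.20 in the other 4 pairs. In the same libraries PRP1 was higher and PRP2 lower in HD, by the values given above. Of the 8 embryo marker loci 4 were higher and 4 lower in HD, and their sum was 431 RPKM in HD and 523 in HS. The differences ran from the glycinin Glyma03g32020.1, at 34.8 RPKM in HD and 0.24 in HS, to the oleosin Glyma05g08880.1, at 17.3 RPKM in HD and 59.6 in HS. The part of these markers in the SACPD-C difference was not tested.

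The oleate desaturases FAD2-1A and FAD2-1B stayed low throughout, and both were higher at the late than at the early stage in all 4 lines. FAD2-1A was at 1.06 RPKM in CS, 1.05 in CD, 0.575 in HS and 0.447 in HD at the early stage. It was at 2.62, 1.05, 2.18 and 3.03 RPKM at the middle stage. The late libraries had 2.99, 1.62, 1.77 and 0.904 RPKM. CD therefore lacked the increase that the other lines had at the middle stage, and HD returned to a low level at the last stage. From the early to the middle stage the ratio was 2.48 in CS, 1.01 in CD, 3.79 in HS and 6.77 in HD.

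FAD2-1B followed a similar course at a higher level. At the early stage its most abundant model was at 3.82 RPKM in CS, 3.60 in CD, 2.58 in HS and 2.09 in HD. The values were 5.27, 2.61, 5.06 and 6.03 RPKM at the middle stage. They were 4.45, 4.97, 3.06 and 3.09 RPKM at the late stage. The stages overlapped, and the CD library at the middle stage was again the one out of step, below both its early and its late library. The 5 splice models of the locus had nearly the same hits in each library, for instance 850 to 868 in CS at the middle stage, and are one measurement.

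Of the FAD2-1 genes only FAD2-1A passed a stage test, and only from the early to the middle stage. Its log2 difference was 0.83 in limma (SE 0.23, adjusted p = 0.0287), with higher values in 4 of 4 lines, and 14% of all models were called higher in this step. The platform and read length also changed at this step. The call was lost without CS (adjusted p = 0.0984), without HS (0.119) and without HD (0.0697). Between the early and the late stage its log2 difference was 0.63 (SE 0.23, adjusted p = 0.0504), and in 6 of 12 alternative fits it passed, with adjusted p from 0.0115 to 0.533 over the 12. FAD2-1B did not pass in either comparison in limma (0.49, SE 0.24, adjusted p = 0.145 for the first and 0.29, SE 0.24, adjusted p = 0.342 for the second). Without CD, FAD2-1B passed from the early to the middle stage (0.77, adjusted p = 0.0247).

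The 2 loci had similar courses, with a Pearson r of 0.87 between their log2(RPKM + 1) values over the 12 libraries. The ratio of FAD2-1B to FAD2-1A nevertheless ran from 1.49 in CS at the late stage to 4.68 in HD at the early stage. At the early stage it was 3.43 to 4.68 in the 4 lines. Whether reads aligned to both of these close paralogs was not tested, and the 12 points share 4 lines, 3 stages and the library totals.

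Among the isoline pairs, both FAD2-1 genes were lowest relative to the standard line in Clark at the middle stage. FAD2-1A was 2.49-fold lower in CD than in CS (counting interval 2.03 to 3.07) and FAD2-1B was 2.02-fold lower (1.76 to 2.33). The embryo markers were lower in the same pair for 7 of 8 loci, with a sum of 120.9 RPKM in CS and 35.8 in CD. The part of these markers, and of the differing library labels of this pair, in the FAD2-1 ratios was not tested. FAD2-1A was also lower in the defective line at the late stage, by 1.84-fold in Clark (1.49 to 2.28) and 1.96-fold in Harosoy (1.51 to 2.55). In Harosoy at the middle stage the direction was opposite, with 1.39-fold more FAD2-1A (1.16 to 1.65) and 1.19-fold more FAD2-1B (1.05 to 1.35) in HD. These intervals are exact binomial intervals at the 95% level and cover counting error only, and they leave out differences among plants and preparations.

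The linoleate desaturases FAD3A, FAD3B and FAD3C were the bulk of the signal of the members. Their summed level ran from 25.7 RPKM in HS at the late stage to 106 RPKM in HD at the late stage. Its ratio to the summed level of the FAD2-1 genes ran from 4.55 in HS at the middle stage to 26.6 in HD at the late stage. Other FAD2 and FAD3 loci do not enter these sums. FAD3C made up 49.9% of the FAD3 sum in HS at the middle stage and 94.3% in HD at the late stage, and its median share was 63.8%. The FAD3C share at the late stage was 68.7% in CS, 66.7% in CD, 78.7% in HS and 94.3% in HD, above its share in the early library of each line. FAD3B, the smallest contributor there, ranged from 2.15% to 11.4% of the sum at that stage.

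**Figure D2:**
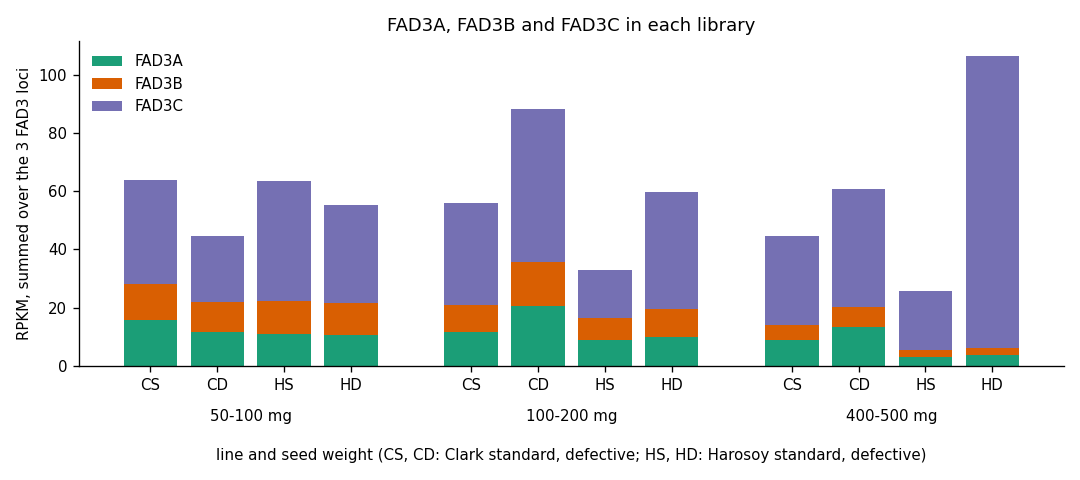
Stacked bars give the RPKM of FAD3A, FAD3B and FAD3C (vertical axis, from 0) in each of the 12 libraries, ordered by seed weight stage and line (CS and CD, Clark standard and defective; HS and HD, Harosoy standard and defective). The FAD3C part was the largest in every bar, and the sum was lowest, 25.7 RPKM, and highest, 106 RPKM, in the 2 Harosoy libraries at the late stage.

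FAD3A was at 15.6 RPKM in CS, 11.5 in CD, 10.9 in HS and 10.5 in HD at the early stage. It was at 11.6, 20.5, 8.82 and 9.93 RPKM at the middle stage. The late libraries had 9.04, 13.3, 2.96 and 3.83 RPKM. Both Harosoy lines ended below all other libraries, while CD peaked at the middle stage and stayed 1.16-fold above its first stage at the last. The second splice model of FAD3A ran in parallel, from 2.71 to 19.3 RPKM.

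FAD3B was close to FAD3A at the early stage, at 12.5 RPKM in CS, 10.3 in CD, 11.5 in HS and 11.2 in HD. Its values were 9.25, 15.2, 7.70 and 9.59 RPKM at the middle stage. They were 4.89, 6.95, 2.50 and 2.28 RPKM at the late stage. The last stage lay below the others without overlap. FAD3A and FAD3B had a Pearson r of 0.91 over the 12 libraries on the log2(RPKM + 1) scale, and the ratio of FAD3A to FAD3B was 0.935 to 1.25 at the early stage and 1.18 to 1.91 at the late stage.

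Both genes fell between the early and the late stage. The log2 difference in limma was -1.36 for FAD3B (SE 0.22, adjusted p = 0.00109), with lower values in 4 of 4 lines. For FAD3A it was -0.84 (SE 0.26, adjusted p = 0.0245), with lower values in 3 of 4 lines. The FAD3A call was lost without CS (adjusted p = 0.0681), without HS (0.122) or without HD (0.129). The fall from the middle to the late stage was called for FAD3B (-1.21, SE 0.22, adjusted p = 0.00262) and FAD3A (-0.85, SE 0.26, adjusted p = 0.0246), the latter not without HS (0.0767) or HD (0.121). In all, 3 of the 6 loci were lower at the late than at the early stage, namely SACPD-C, FAD3A and FAD3B, and none was called higher. Over all models 28.2% were called lower in this comparison, and 28.4% from the middle to the late stage.

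FAD3C, annotated by the study as an omega-3 desaturase of the endoplasmic reticulum, had no shared course over the stages. At the early stage it was at 35.6 RPKM in CS, 22.8 in CD, 41.1 in HS and 33.4 in HD. It was at 35.2, 52.3, 16.4 and 40.3 RPKM at the middle stage. The late libraries had 30.5, 40.6, 20.2 and 100.2 RPKM. Between the first and last stage it was 1.78-fold higher in CD and 3.0-fold higher in HD, and 1.17-fold lower in CS and 2.03-fold lower in HS. Its stage difference was 0.29 on the log2 scale in limma (SE 0.41, adjusted p = 0.587). It was -0.60 in the standard lines alone (adjusted p = 0.234), 1.18 in the defective lines alone and -0.13 without HD (adjusted p = 0.832).

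**Figure D3:**
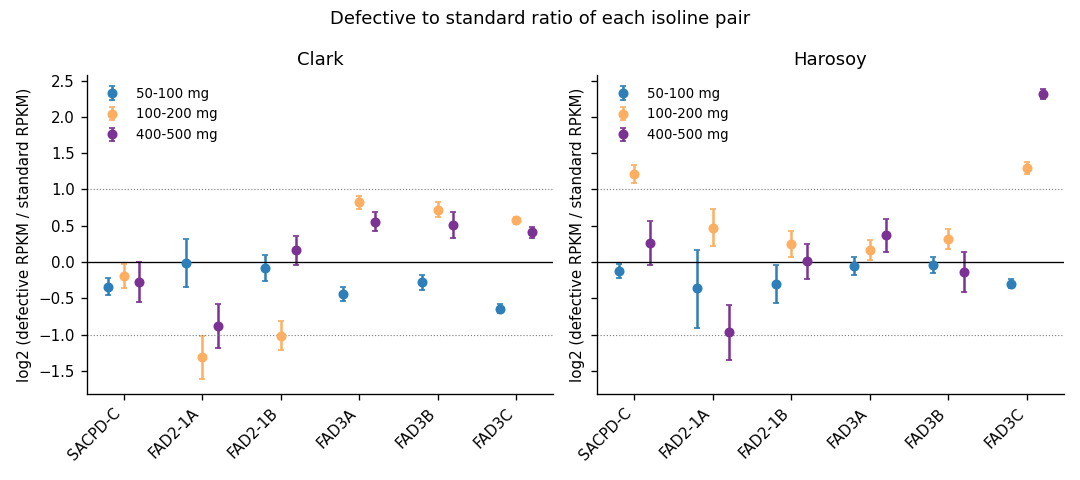
The log2 ratio of the defective to the standard RPKM (vertical axis) is given for each of the 6 loci (horizontal axis) in the Clark pairs on the left and the Harosoy pairs on the right, coloured by stage. Bars are exact 95% binomial intervals for counting error and dotted lines mark a 2-fold ratio. FAD3C reached a ratio of 4.96 in Harosoy at the late stage, and FAD2-1A one of 0.402 in Clark at the middle stage.

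The comparison of defective and standard coats asks whether the Def trait goes with a change in these transcripts. At the early stage all 6 loci had less RPKM in the defective than in the standard library of both pairs, and 5 of the 12 counting intervals included 1. In Clark FAD3C was 1.56-fold lower (counting interval 1.49 to 1.63), FAD3A 1.36-fold lower (1.27 to 1.45), SACPD-C 1.26-fold lower (1.16 to 1.37) and FAD3B 1.21-fold lower (1.13 to 1.30), while the intervals of both FAD2-1 genes included 1. In Harosoy FAD3C was 1.23-fold lower (1.18 to 1.29), and the intervals of FAD2-1A, FAD3A and FAD3B included 1.

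At the middle stage the FAD3 genes were instead higher in the defective library of both backgrounds. In the Clark pair FAD3A was 1.77-fold higher in CD (1.66 to 1.89), FAD3B 1.65-fold (1.53 to 1.77) and FAD3C 1.49-fold (1.43 to 1.54). In the Harosoy pair FAD3C was 2.45-fold higher in HD (2.31 to 2.61), with only 1.13-fold for FAD3A (1.02 to 1.24) and 1.25-fold for FAD3B (1.13 to 1.38). PRP1 was higher and PRP2 lower in both defective libraries of this stage, and their relation to these ratios was not tested.

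At the late stage FAD3C was 4.96-fold higher in HD than in HS (4.73 to 5.20), the largest ratio of any member in any pair. CD exceeded CS by 1.33-fold for FAD3C (1.26 to 1.40), 1.47-fold for FAD3A (1.34 to 1.61) and 1.42-fold for FAD3B (1.26 to 1.61). In Harosoy FAD3A was 1.29-fold higher in HD (1.11 to 1.51) and the FAD3B ratio was 0.912 (0.754 to 1.10), an interval that includes 1. The embryo marker sum at this stage was 830 RPKM in HD and 1168 in HS, of which the beta-conglycinin Glyma10g39150.1 made 469 and 843 RPKM, and without that locus the sums were 361 and 324 RPKM. In HD 5 of the 8 marker loci were higher and 3 lower than in HS. In Clark 2 were higher and 6 lower in CD, with sums of 379 RPKM in CD and 674 in CS. The part of these markers in the FAD3 ratios was not tested.

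A pair counted as changed for a model that reached 5 RPKM in the standard or the defective library and differed 2-fold or more, which are the expression criteria of the study. In Clark no member passed at the early or the late stage, where 3.94% and 3.22% of all models with enough RPKM did, and FAD2-1B passed as lower in CD at the middle stage, where 4.77% did. That pass rests on the splice model, since only Glyma20g24530.1 and Glyma20g24530.5, at 5.27 and 5.25 RPKM in CS, met the minimum, and the other 3 models stayed under 5 RPKM. In Harosoy no member passed at the early stage, against 0.572% of all models. SACPD-C and FAD3C passed as higher in HD at the middle stage, 2 of the 5 loci with enough RPKM against 14.3% of all models. In the late pair FAD3C passed and was the only member with 5 RPKM or more in either library, against 9.64% of all models. FAD2-1A had too few RPKM to be counted in any pair. Counts this small cannot separate the members from all models.

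No member passed the test of defective against standard in limma at any stage. The study, by DESeq and its expression criteria, did list FAD3C among its differentially expressed models. Its test compared the isolines within a background, without replicate libraries, whereas the limma error is the difference between the backgrounds. In limma 0% of all models were called at the early stage, with 646 at an unadjusted p under 0.05 and no member among them. The estimates for the 6 loci lay between -0.46 (SE 0.44) for FAD3C and -0.06 (SE 0.27) for FAD2-1A on the log2 scale.

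At the middle stage 0.0303% of all models were called, or 14 models, with 6680 at an unadjusted p under 0.05. FAD3B had a log2 difference of 0.47 (SE 0.19, unadjusted p = 0.0443, adjusted p = 0.332) and FAD3A one of 0.46 (SE 0.20, adjusted p = 0.36) in limma. FAD3C had 0.90 (SE 0.44, adjusted p = 0.411) and SACPD-C 0.47 (SE 0.30, adjusted p = 0.525). The FAD2-1 genes were at -0.24 (SE 0.27) for FAD2-1A and -0.29 (SE 0.25) for FAD2-1B, with opposite directions in the 2 backgrounds. In the late pairs 0% of all models were called, and 1282 had an unadjusted p under 0.05. FAD3C was among these in limma, with 1.33 (SE 0.44, unadjusted p = 0.0234, adjusted p = 1). FAD3A had 0.40 (SE 0.20) and FAD2-1A -0.57 (SE 0.27) at that stage, with the same direction in both backgrounds. The fit has 3 residual degrees of freedom, and its error is the difference between the backgrounds.

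Over all stages 0% of the models were called, with 2313 at an unadjusted p under 0.05 and no member among them. The defective library had the more FAD3C in 4 of 6 pairs (log2 difference 0.59, SE 0.35, adjusted p = 0.86 in limma), and FAD2-1A was lower in 5 of 6 (-0.29, SE 0.16, adjusted p = 0.86). The difference of the genotype effect between Harosoy and Clark was called for 0.00216% of all models, 1 model, which is not a member. It was 0.96 for FAD3C (SE 0.65, adjusted p = 0.831) and 0.59 for SACPD-C (SE 0.31, adjusted p = 0.831). The larger ratios of these genes in Harosoy than in Clark did not pass this test of the difference itself.

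**Figure D4:**
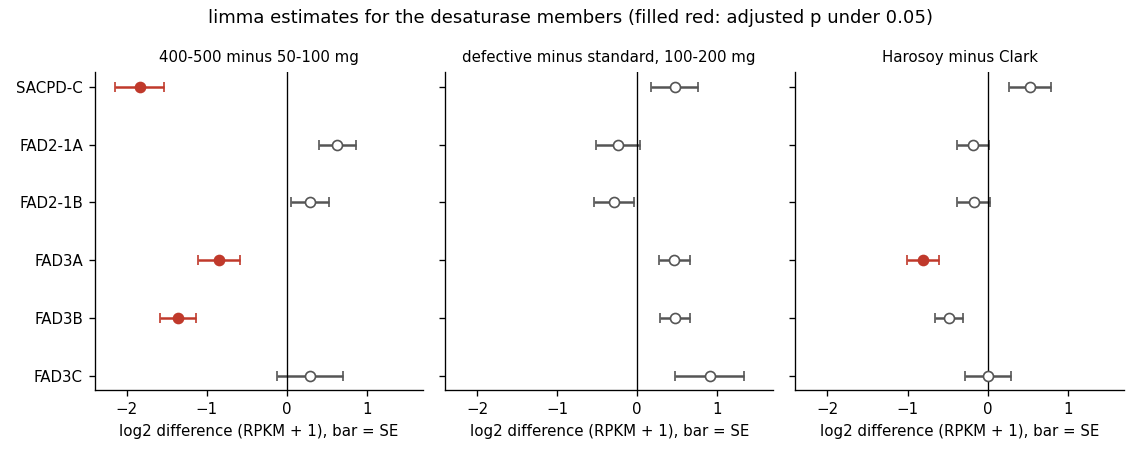
Log2 differences of RPKM + 1 with SE (horizontal axis) from limma for the 6 loci (vertical axis), for the late against the early stage, for defective against standard at the middle stage and for Harosoy against Clark. Filled red points passed an adjusted p of 0.05, namely SACPD-C, FAD3A and FAD3B for the stage and FAD3A for the background, and no point of the middle panel did.

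FAD3A was lower in Harosoy than in Clark in 6 of 6 matched libraries. The ratio was 1.44-fold and 1.10-fold at the early stage for the standard and the defective lines, 1.31-fold and 2.06-fold at the middle stage, and 3.05-fold and 3.47-fold at the late stage. The log2 difference was -0.81 in limma (SE 0.20, adjusted p = 0.0324), in a comparison that called 16.4% of all models, 8.04% as lower in Harosoy. The 6 matched libraries are stages and isolines of a single cultivar on each side. They are not independent replicates, and the p-value does not measure the spread between cultivars. The call was lost when any of 4 matched pairs was left out, with adjusted p of 0.0561 and 0.0792 without the standard libraries of the early and late stage, and 0.1 and 0.0637 without the defective libraries of the middle and late stage. FAD3B was lower in Harosoy in 5 of 6 matched libraries (-0.48, SE 0.18, adjusted p = 0.0954), and SACPD-C had a difference of 0.53 (SE 0.27, adjusted p = 0.203). SACPD-C was higher in Harosoy in all 4 matched libraries of the first 2 stages, by 1.5- to 3.97-fold, and lower in both at the late stage. Clark and Harosoy also differ in the I, R and T alleles, and the pigmented coats call for a modified RNA extraction, so cultivar, pigment alleles and extraction cannot be told apart.

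The study's tables annotate 4 further loci as fatty acid desaturases, which were described beside the members. These tables list models that the study called differentially expressed between standard and defective coats in these same libraries. The 4 loci are thus no independent reference, since large ratios of defective to standard were selected for. Glyma11g27190, annotated as a FAD8 omega-3 desaturase, was at 18.2, 12.5, 21.0 and 19.1 RPKM in CS, CD, HS and HD at the early stage. Where in the cell its enzyme acts was not examined. It was at 16.8, 22.2, 7.76 and 19.4 RPKM at the middle stage. In the late libraries it was at 5.70, 7.92, 4.69 and 24.1 RPKM. Glyma01g10120, annotated as an omega-3 desaturase of the endoplasmic reticulum, rose to 5.57 to 11.5 RPKM at the middle stage from 1.57 to 3.17 RPKM before. Late values were 1.97, 2.74, 1.64 and 7.85 RPKM in CS, CD, HS and HD.

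These 2 omega-3 desaturases and FAD3C showed like ratios in the Harosoy pairs. At the late stage HD exceeded HS 5.15-fold for Glyma11g27190 (4.66 to 5.70) and 4.79-fold for Glyma01g10120 (3.62 to 6.40), beside the 4.96-fold of FAD3C. At the middle stage the ratios were 2.50 (2.29 to 2.73), 2.04 (1.71 to 2.44) and 2.45 for the 3 loci. In Clark the ratios of CD to CS at the late stage were 1.39 for Glyma11g27190, 1.40 for Glyma01g10120 and 1.33 for FAD3C. Over the stages the ratio of FAD3C to Glyma11g27190 was 1.75 to 2.36 in the first 2 stages and 4.15 to 5.36 at the late stage. The ratio of FAD3C to Glyma01g10120 lay between 12.3 and 15.5 in all early and late libraries, with these stages overlapping. It was 2.95 to 4.57 in the middle libraries, which also differed in platform and read length. Whether reads aligned to more than 1 of these loci was not tested.

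**Figure D5:**
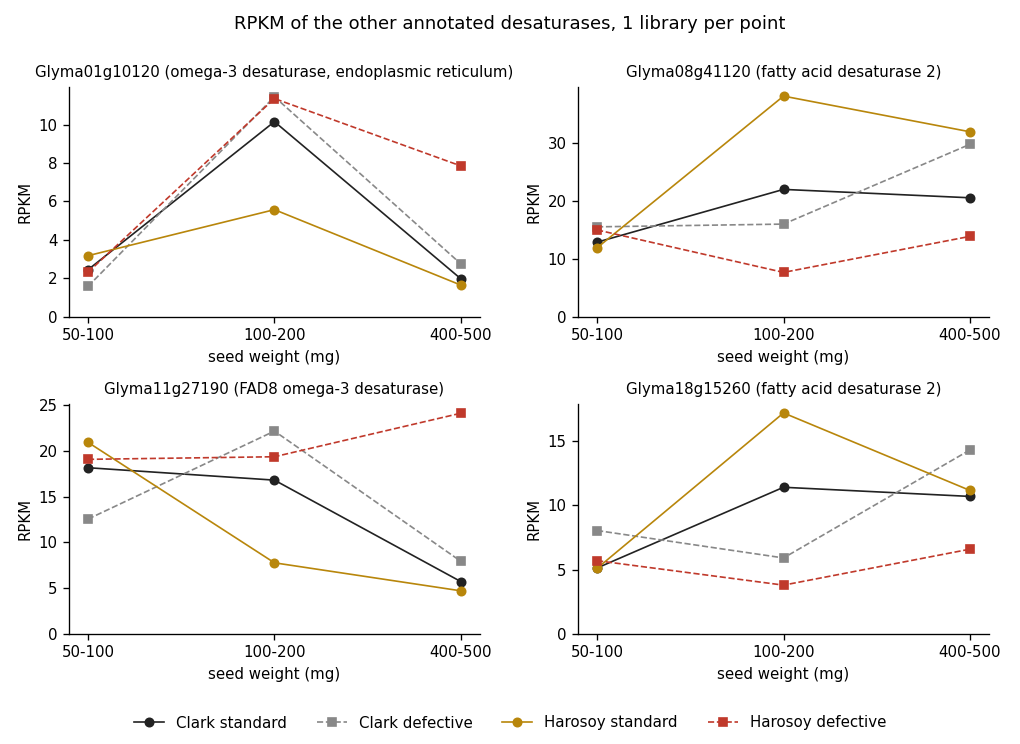
RPKM (vertical axis, from 0, each panel with its own scale) of the 4 further annotated desaturase loci against seed weight stage in mg (horizontal axis), 1 library per point, with circles and solid lines for standard and squares and broken lines for defective lines. Among the late libraries both omega-3 loci were highest in Harosoy defective (24.1 and 7.85 RPKM), and both loci annotated as fatty acid desaturase 2 were lowest in the Harosoy defective library at the middle stage.

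The loci annotated as fatty acid desaturase 2, Glyma08g41120 and Glyma18g15260, went the other way in Harosoy. Glyma08g41120 was at 38.2 RPKM in HS and 7.65 in HD at the middle stage, a 4.99-fold lower level in HD (4.68 to 5.32), and at 32.0 and 13.9 RPKM at the late stage, 2.30-fold lower (2.19 to 2.43). Glyma18g15260 was at 17.2 RPKM in HS and 3.78 in HD at the middle stage, 4.55-fold lower (4.11 to 5.05). Over the 12 libraries Glyma08g41120 was at 7.65 to 38.2 RPKM, against 2.09 to 6.03 RPKM for FAD2-1B, and was above it in each library. Among the 4 loci limma called only Glyma01g10120, at steps where the platform and read length also changed. It was higher at the middle than at the early stage (log2 difference 1.63, SE 0.32, adjusted p = 0.0065). It was lower at the late than at the middle stage (-1.36, SE 0.32, adjusted p = 0.00799). Its late minus early difference, within the 100 bp libraries, was 0.27 in limma (SE 0.32, adjusted p = 0.512). Its hits were as few as 65 in a library. None of the 4 loci was called between defective and standard coats in limma, although both loci annotated as fatty acid desaturase 2 at the middle stage and both omega-3 loci at the late stage had an unadjusted p under 0.05, from 0.00773 for Glyma18g15260 to 0.0449 for Glyma08g41120.

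The study's tables file 96 models that were available here under lipid metabolism or biosynthesis. They were picked from these libraries and form part of a longer list, so they are no independent reference. Between the early and the late stage 38 of them rose and 31 fell, with a median log2 difference of 0.57 against -0.02 over all models tested, of which 10202 rose and 13050 fell (50.3% called). From the early to the middle stage 12 rose and 3 fell, where 29.7% of all models were called, and from the middle to the late stage 26 rose and 31 fell, where 49.5% were. Between the backgrounds none was higher and 4 were lower in Harosoy, against 16.4% of all models called in either direction. None was called between defective and standard coats in limma. At the early, middle and late stage 5, 24 and 14 of the 96 had an unadjusted p under 0.05. Over all 46237 models the counts were 646, 6680 and 1282.

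The expression patterns most like the members were sought among the 28993 models that reached 5 RPKM in 2 or more libraries, by Pearson r of log2(RPKM + 1) over the 12 libraries. SACPD-C was most like Glyma08g46360.1 (r 0.99) and FAD3B most like Glyma19g27250.3 (r 0.99). FAD3A was most like Glyma01g44450.3 (r 0.98) and FAD3C most like Glyma05g02210.1 (r 0.93). For FAD2-1A the closest was Glyma17g31650.1 (r 0.91) and for FAD2-1B Glyma10g29320.1 (r 0.85), which was also the next closest to FAD2-1A (r 0.90). The sources used here annotate none of these models. The points share lines, stages and library totals.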

How the data were processed

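Seed coat RNA of 4 lines at 3 stages was sequenced as 12 libraries without replicates. The authors aligned reads with Bowtie to the Glyma cDNA models of soybean genome version 1.0, with up to 3 mismatches and 25 alignments, and deposited RPKM values in 6 tables, 1 for each isoline pair. The version of Bowtie was not given in the sources used here. The authors' own tests used DESeq and were not used.

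The 6 tables were joined on the model identifiers. Hits and library totals were recovered from the RPKM steps, with hits taken as whole within 0.03. A locus with several splice models is represented by the one with the highest mean RPKM. Because the values are RPKM, limma 3.58.1 in R 4.3.3 was fitted with a trend to log2(RPKM + 1) for the 46237 models that reached 1 RPKM in 2 or more libraries, and fold changes of low genes are understated on that scale. All 11 member models passed this filter. Genotype fits had the isoline pair as a block, stage fits the line, and background fits the matched libraries of a genotype and stage. P-values were adjusted over all models (Benjamini-Hochberg, 0.05) and measure the spread between single libraries of different lines, stages or backgrounds. Within a pair nothing was tested. The fits were tested on simulated data. Python 3.11.15 with pandas 2.3.3, numpy 2.4.6, scipy 1.17.1 and matplotlib 3.10.9 was used.

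The genes named are the splice models of the 6 loci, the other desaturases annotated by the study's tables, the closest patterns by correlation, and the embryo and seed coat markers. The members and all lists were chosen with earlier results of these data known. The further desaturases and the embryo markers come from the study's tables of models called differentially expressed between standard and defective coats. The reference annotation held here does not pair with the Glyma identifiers, so no sequences or coordinates are given. For the same reason desaturase loci beyond the members and the study's tables, among them other stearoyl and oleate desaturases, were not looked up. Alternatives were another pseudocount, filter, fold or normalization, fits without the trend or block, summed splice models, Spearman correlation, and leaving out lines, pairs, stages or matched libraries.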

Additional observations from a re-analysis of the deposited data

How the results depend on the processing

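No line and stage has a replicate library here, so every test rests on the agreement of lines, pairs or backgrounds, and the precision of a single value is limited by hits, which were fewest for FAD2-1A. No genotype contrast called a member under any alternative. Of the 6 loci, 3 were called from the early to the late stage, against 1 with the defective lines alone, where FAD3A and FAD3B were lost. From the early to the middle stage 1 was called, against 0 with the 5 RPKM filter, which leaves FAD2-1A untested, 0 with the defective lines alone and 0 to 2 with a line left out. From the middle to the late stage 3 were called, against 1 with the standard lines alone. Between backgrounds 1 was called, against 0 without the filter on low values, 0 with the standard lines alone and 0 to 1 with a matched pair left out. FAD3C had a difference of 0.29 between the early and the late stage. It became -0.13 to 0.72 with a line left out, the lowest without HD. With the standard lines alone it was -0.60, and with the defective lines alone 1.18. The count of members past the fold criteria in Clark at the middle stage, 1, became 0 at 3-fold, 2 with a minimum of 1 RPKM, through FAD2-1A, and 0 with 10 RPKM, and that in Harosoy at the middle stage, 2, became 0 at 3-fold. Of the gene values given, 327 kept direction and call under an alternative, 20 lost the call, 7 gained it and 2, both of FAD3C, changed direction. Spearman correlation named other closest models except for SACPD-C and FAD2-1B.

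Over all models the 14 genotype calls at the middle stage became 0 with a pseudocount of 0.1 RPKM or that stage alone, 30 without the filter and 7 with summed splice models. The 1 call between backgrounds in the genotype effect became 5 with that pseudocount and 0 without the filter, and the 0 calls over all stages became 1 without the pair block. Fewer lines lowered the stage calls. With the standard and the defective lines alone they were 11612 and 10634 from 23252 (late against early), 3088 and 2002 from 13751 (middle against early) and 4988 and 11735 from 22903 (late against middle), and the middle against early calls fell to 7488 to 10572 with a line left out. The 7568 background calls became 2029 to 5235 with a matched pair left out and 2 with the standard lines alone. These fits hold fewer libraries, and other causes were not tested.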
